A study of Homo sapiens with 6 samples.

Results

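The genes described here encode the human receptors for the constant part of IgG and the protein chains they depend on. They are the low- to high-affinity Fc gamma receptors FCGR1A, FCGR2A, FCGR2B, FCGR3A and FCGR3B, the signalling chain FCER1G, and the neonatal Fc receptor FCGRT. The set was defined by gene name, with earlier results of these data known, and all 7 were found among the 57316 gene names of the count tables. The cells were THP-1, an established monocytic leukaemia line of human origin that PMA, a phorbol ester, drives towards a macrophage state, and all of them first had PMA at 100 ng/ml for 48 h. The CXCL10 group then had the recombinant human protein at 100 ng/ml for 24 h, and the control group had control solution for the same time. Polyadenylated RNA was sequenced in 3 libraries per group, with replicate numbers 1, 3 and 4. The comparison asks whether this interferon-inducible chemokine alters transcript levels in macrophage-like cells. The labels do not say whether replicates were separate cultures, and the spread behind each p-value may thus be technical only. In these bulk samples fewer cells of a type and less RNA per cell cannot be told apart.

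Fc gamma receptors let a phagocyte bind particles and immune complexes coated with IgG. Activating receptors signal through an ITAM, a stretch with a pair of tyrosines that Src-family kinases phosphorylate and that then docks the kinase SYK. FCGR1A (CD64, the high-affinity receptor) and FCGR3A (CD16a) borrow the ITAM of the FCER1G chain, whereas FCGR2A (CD32a) carries an ITAM-like stretch in its own tail. FCGR2B (CD32b) carries an inhibitory ITIM, which docks the lipid phosphatase encoded by INPP5D. FCGR3B (CD16b) is a lipid-anchored form known from neutrophils. FCGRT pairs with beta-2 microglobulin and returns IgG and albumin from endosomes to the cell surface.

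The coding sequences of these motifs are shown because they set apart the activating from the inhibitory members. They were read from the GENCODE 29 transcripts on GRCh38, plus strand of chromosome 1, and capitals mark the tyrosine codons.
FCER1G, chr1:161218718-161218919 over 2 exons: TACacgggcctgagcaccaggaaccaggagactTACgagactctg
FCGR2A, chr1:161518056-161518115: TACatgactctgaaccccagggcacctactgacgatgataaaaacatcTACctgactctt
FCGR2C, chr1:161599711-161599770: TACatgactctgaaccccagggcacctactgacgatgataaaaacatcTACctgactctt
FCGR2B, chr1:161677488-161677505: atcaccTATtcacttctc

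The ITAM-like pattern searched in the translated sequences was a tyrosine with leucine or isoleucine at the third place after it, then 6 to 12 residues, then the same again. It began at residue 65 of the 86 residues of FCER1G and at residue 288 of the 317 of FCGR2A, and 6.6% of 19598 protein-coding genes held it. The ITIM-like pattern (isoleucine, valine, leucine or serine, any residue, tyrosine, any 2 residues, then leucine, valine or isoleucine) began at residue 290 of the 310 of FCGR2B. It is a loose pattern: 47.8% of all protein-coding genes held it, and it also matched FCGR1A, FCGR1B, FCER1G and FCGRT. A match is a description of the letters only. FCGR2C, a near-identical copy that lies between FCGR3A and FCGR3B, has the same ITAM-like letters as FCGR2A.

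Next are the 60 coding bases around the point where FCGR2C and FCGR2B part. They are shown because the longest run of coding bases that FCGR2B and FCGR2C share ends there. Capitals mark the positions at which FCGR2B and FCGR2C differ, and each stretch spans 2 exons of the plus strand.
FCGR2C, chr1:161592214-161595583: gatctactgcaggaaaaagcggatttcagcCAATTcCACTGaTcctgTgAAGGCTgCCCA
FCGR2A, chr1:161510928-161513925: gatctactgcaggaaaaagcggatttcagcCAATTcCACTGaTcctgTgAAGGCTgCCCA
FCGR2B, chr1:161674045-161675287: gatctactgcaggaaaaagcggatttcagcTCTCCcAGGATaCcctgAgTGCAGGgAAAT

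FCGR2B and FCGR2C share a run of 513 identical coding bases up to this point, and in the 60 bases shown FCGR2C has the letters of FCGR2A. The longest run that FCGR2A shares is 165 bases with FCGR2B and 141 bases with FCGR2C. FCGR3A and FCGR3B differ at 9 of 699 aligned coding bases, an identity of 98.71%. The 60 coding bases with most differences are shown on the minus strand, with capitals at the differing positions.
FCGR3A, chr1:161544780-161544839: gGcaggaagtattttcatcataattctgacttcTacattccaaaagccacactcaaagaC
FCGR3B, chr1:161626224-161626283: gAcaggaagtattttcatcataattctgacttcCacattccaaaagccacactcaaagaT

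These likenesses bear on the counts, because reads mapped to several places and reads over 2 genes were left out. In windows of 100 bases along the longest coding transcript, FCER1G and FCGRT shared none with another gene name. FCGR2A had 87.1% of windows to itself, FCGR2B 70.8%, FCGR3A and FCGR3B 89.6% each, and FCGR1A 49.1%. Of the FCGR1A windows, 20.5% were also held by the pseudogene FCGR1CP and 18.8% by FCGR1B. A further part lies in genes annotated over FCGR1A itself: 24.6% of its exon length is opposite another gene, and counting ignored strand. FCGR2B has 7.3% of its exon length opposite another gene, and FCGR2A shares 3.8% with a gene of its own strand. The read length is not given in the sources used here, and with windows of 150 bases the share unique to FCGR1A was 68.5%. How many reads of FCGR1A, FCGR2A, FCGR2B, FCGR3A and FCGR3B were lost in this way is not known, so their levels are uncertain.

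**Figure D1:**
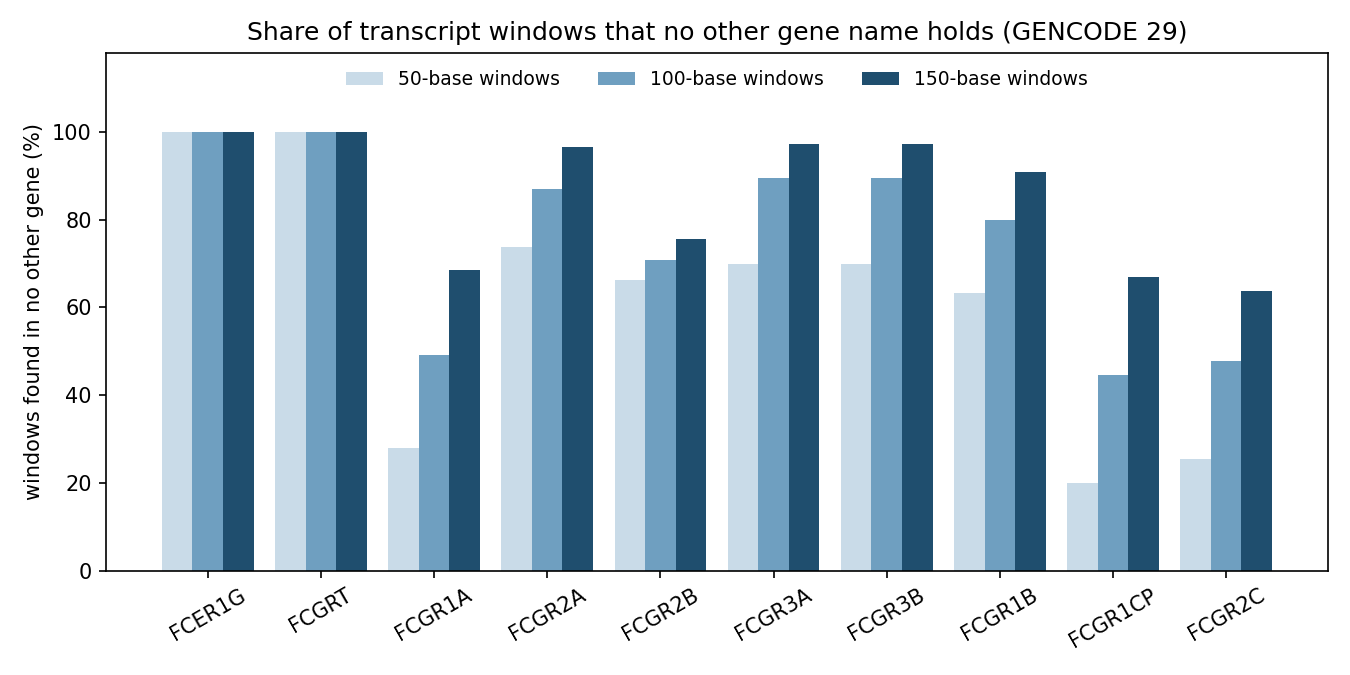
Bars give, for each gene, the percentage of windows of 50, 100 or 150 bases along 1 transcript that no transcript of another gene name holds, with the members on the left and the near-identical copies FCGR1B, FCGR1CP and FCGR2C on the right. FCER1G and FCGRT stand at 100% for every window length, while FCGR1A, at 49.1% for 100 bases, is the least unique member.

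The genes differed widely in level, with the signalling chain FCER1G first and FCGRT second. As reads per kilobase of merged exon length per M library reads (RPKM), FCER1G measured 1002 ± 77.2 with CXCL10 and 1227 ± 209 in controls (SD, n = 3 each). FCGRT followed at 133 ± 10.2 RPKM with CXCL10 and 144 ± 11.4 RPKM in controls. FCGR1A was the most abundant of the 5 FCGR genes, at 17.8 ± 2.02 RPKM with CXCL10 and 19.5 ± 4.78 RPKM in controls.

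FCGR2A came next at 3.90 ± 0.192 RPKM with CXCL10 and 3.57 ± 0.571 RPKM in controls. FCGR2B had 0.722, 0.534 and 0.569 RPKM in CXCL10 replicates 1, 3 and 4, against 0.556, 0.517 and 0.760 RPKM in control replicates 1, 3 and 4. FCGR3A was close to the limit of detection, at 0.172 ± 0.0651 RPKM with CXCL10 and 0.222 ± 0.0707 RPKM in controls. No read of FCGR3B was counted in any of the 6 libraries. A limit of 3 fragments, or 6 reads, corresponds to 0.146 to 0.173 reads per M library reads (CPM), depending on the library. The library ranges of neighbours in this order did not overlap for any of the 6 neighbouring pairs. The order was the same without the length correction and with the length of the longest coding transcript.

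Among the 5 FCGR genes, FCGR1A made up 79.1% ± 1.32 of the summed RPKM with CXCL10 and 81.4% ± 1.41 in controls, and FCGR2A made up 17.4% ± 0.881 with CXCL10 and 15.1% ± 1.25 in controls (SD, n = 3 each). The inhibitory FCGR2B took 2.70% ± 0.334 with CXCL10 and 2.56% ± 0.121 in controls. The merged exon length of FCGR2B, 6651 bases, holds annotated retained introns, so its share depends on the length used. With the length of the longest coding transcript FCGR2B measured 1.91 ± 0.314 RPKM with CXCL10 and 1.92 ± 0.409 RPKM in controls. By that length FCGR1A measured 24.5 ± 2.77 RPKM with CXCL10 and 26.85 ± 6.57 RPKM in controls. FCGR2A measured 8.60 ± 0.423 RPKM with CXCL10 and 7.87 ± 1.26 RPKM in controls. The shares of FCGR1A and FCGR2A thus depend on the length used as well.

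**Figure D2:**
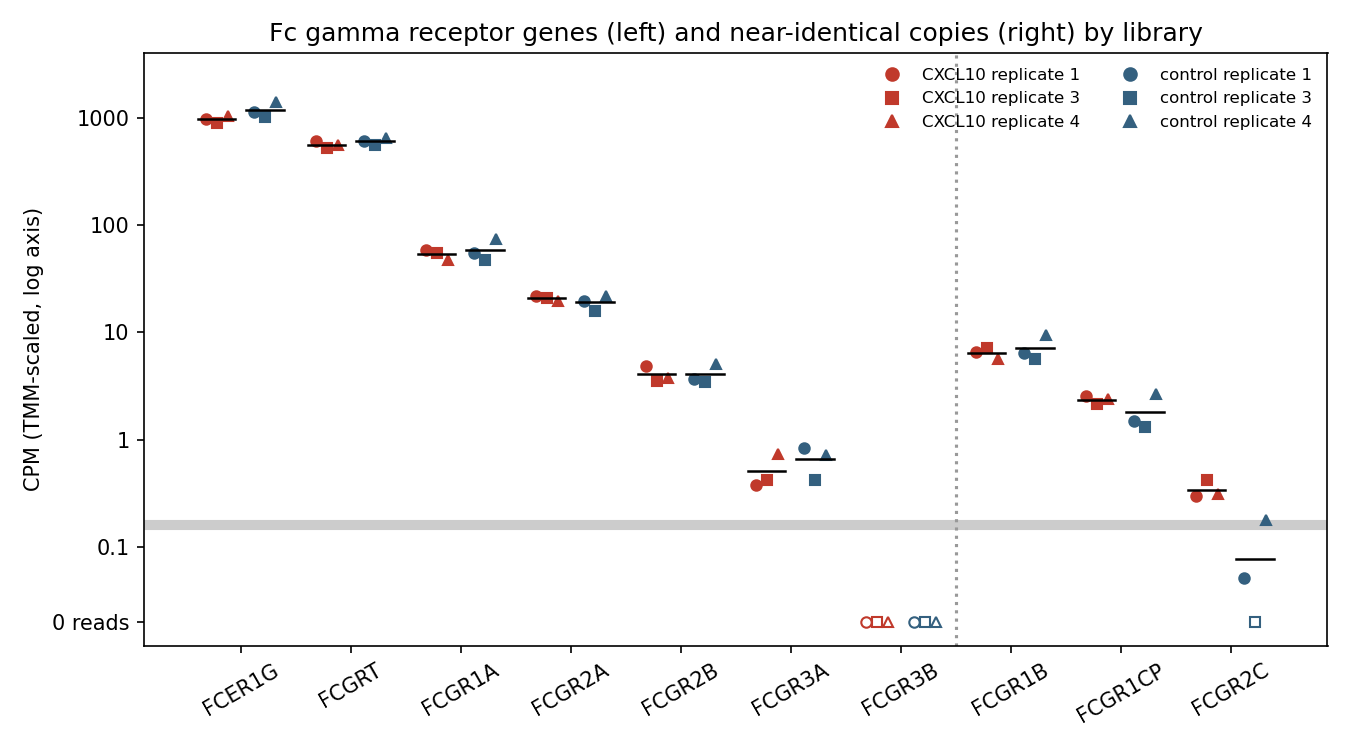
Each point is the TMM-scaled CPM of 1 gene in 1 library on a log axis, with CXCL10 libraries in red on the left of each gene, control libraries in blue on the right, black bars at group means, and the grey band at the limit of 3 fragments. Open symbols mark 0 reads. The members step down from FCER1G, near 1000 CPM, to FCGR3B with none, and the groups overlap for every member.

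The levels of these genes did not separate CXCL10-treated cells from controls. Of the 7 members, 6 had enough reads to be tested, and none passed the quasi-likelihood test of edgeR at 0.05 after Benjamini-Hochberg adjustment over 16531 genes (adjusted p from 0.702 to 0.998). The background was the same: 0% of all tested genes passed. None of the 6 had an unadjusted p under 0.05, against 7.14% of all tested genes, and none had groups that did not overlap, against 12.2%. The log2 fold change was below 0 for 5 of the 6, with a median of -0.12 beside 0.023 over all tested genes. DESeq2 and limma-voom also called 0 members.

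Control replicate 4 stood high for most members. It had the highest CPM of the 6 libraries for 5 of the 6 tested members, and for 25.8% of all tested genes. In that library 75.8% of low counts (1 to 20 reads) were even, against 66.8% to 68.0% in the others. The part of this library in the differences was not tested beyond the values given without it. Library totals, as reads assigned to genes, ranged from 34.8 to 41.0 M reads.

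FCER1G, the ITAM chain shared by FCGR1A, FCGR3A and other immune receptors (chromosome 1, 161215234 to 161220699, hg38), showed the lowest p of the members. It measured 966, 892 and 1041 CPM in CXCL10 replicates 1, 3 and 4, against 1131, 1013 and 1406 CPM in control replicates 1, 3 and 4. Only CXCL10 replicate 4 lay within the control range, just above control replicate 3. This gave a log2 fold change of -0.29 ± 0.14 (SE, 95% interval -0.60 to 0.02), with an unadjusted p of 0.0610 and an adjusted p of 0.702 by edgeR.

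The FCER1G difference was -0.15 without control replicate 4, and -0.094 after a trend with gene length was taken out within each library. FCER1G is a short gene, with 964 bases of merged exons, and the 1655 shortest tested genes (up to 1222 bases) had a median log2 fold change of -0.20. For 45.3% of those short genes control replicate 4 was the highest library, against 25.8% of all tested genes. The part of gene length in the FCER1G difference was not tested.

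TYROBP (DAP12), the ITAM adaptor of TREM and other receptors, had the same direction with a larger difference. It measured 418 ± 76.4 CPM with CXCL10 and 618 ± 209 CPM in controls, and the edgeR fit gave a log2 fold change of -0.56 ± 0.20 with an adjusted p of 0.683. Leaving out control replicate 4 gave -0.25, and removing the length trend gave -0.35. With no filter on low counts TYROBP had an adjusted p of 0.0308 by edgeR. That setting called 137 of 30869 genes, against 0 of 16531 in the main fit.

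FCGR1A, the high-affinity receptor known to be induced by interferon gamma (chromosome 1, 149782671 to 149792518), was counted at 2171, 2368 and 1667 reads in CXCL10 replicates 1, 3 and 4, against 2105, 1764 and 2490 reads in control replicates 1, 3 and 4. In CPM these were 58.5, 54.9 and 46.7 with CXCL10, and 54.5, 46.7 and 74.4 in controls. The groups overlapped, and both the highest and the lowest library were controls. FCGR1A had a log2 fold change of -0.13 ± 0.17 (95% interval -0.50 to 0.24, adjusted p = 0.882 by edgeR), and it was 0.083 without control replicate 4.

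The near-identical copies of FCGR1A held fewer reads. FCGR1B, which lacks the last immunoglobulin domain of FCGR1A (chromosome 1, 121087345 to 121096310), measured 6.45 ± 0.744 CPM with CXCL10 and 7.14 ± 1.96 CPM in controls, with a log2 fold change of -0.14 ± 0.21. The pseudogene FCGR1CP (chromosome 1, 143874793 to 143883575) measured 2.36 ± 0.190 CPM with CXCL10 and 1.81 ± 0.742 CPM in controls, with a log2 fold change of 0.39 ± 0.30. That value was 0.77 without control replicate 4 and 0.21 when control replicate 3 was left out. Neither passed the test (adjusted p = 0.900 and 0.792 by edgeR). When reads of FCGR1A, FCGR1B and FCGR1CP were summed, the log2 fold change was -0.12 ± 0.17.

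FCGR2A, the activating receptor with its own ITAM-like tail (chromosome 1, 161505430 to 161524013), was the 1 tested member above 0. Its CPM were 21.6, 21.04 and 19.6 in CXCL10 replicates 1, 3 and 4, against 19.4, 15.8 and 21.8 in control replicates 1, 3 and 4. The CXCL10 libraries lay close together within the upper part of the control range. Its log2 fold change was 0.13 ± 0.16 (95% interval -0.21 to 0.47, adjusted p = 0.875 by edgeR). It was 0.24 without control replicate 4 and 0.026 without control replicate 3.

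FCGR2B, the inhibitory receptor (chromosome 1, 161663147 to 161678654), had 178, 153 and 135 reads in CXCL10 replicates 1, 3 and 4, against 143, 130 and 169 reads in control replicates 1, 3 and 4. Its CPM were 4.80, 3.55 and 3.79 with CXCL10 and 3.70, 3.44 and 5.05 in controls, and each group had 1 library well above its other two. For FCGR2B the log2 fold change was -0.006 ± 0.23, with a 95% interval of -0.49 to 0.48 and an adjusted p of 0.998 by edgeR. Without control replicate 4 the value was 0.18, and with library size scaling alone it was 0.077.

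FCGR2C (chromosome 1, 161581339 to 161605662), the hybrid copy with the front of FCGR2B and the tail of FCGR2A, was the 1 gene among the members and their copies whose groups did not overlap. That is 1 of 9 tested, or 11.1%, near the 12.2% of all tested genes. It had 11, 18 and 11 reads in CXCL10 replicates 1, 3 and 4, against 2, 0 and 6 reads in control replicates 1, 3 and 4. All 3 control libraries were at or below the limit of 6 reads. The fitted log2 fold change, which depends on the prior count at such low counts, was 2.16 ± 0.80, with an adjusted p of 0.683 by edgeR. FCGR2C entered the test only through its CXCL10 libraries, and with counts halved, to allow for both mates being counted, it did not pass the filter on low counts. Without control replicate 3 the fitted value was 1.59, and it reached 3.56 when control replicate 4 was left out.

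FCGR2C is no member of the set and is shown as a copy that shares 41.3% of its 100-base windows with FCGR2B and 13.7% with FCGR2A. Its reads make up 48 of the reads of this trio, against 4481 for FCGR2A and 908 for FCGR2B. With the reads of FCGR2A, FCGR2B and FCGR2C summed, the log2 fold change was 0.12 ± 0.16 (95% interval -0.22 to 0.46, adjusted p = 0.883 by edgeR).

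FCGR3A, which natural killer cells and some monocytes use for antibody-dependent killing (chromosome 1, 161541759 to 161550737), had 14, 18 and 26 reads in CXCL10 replicates 1, 3 and 4, against 32, 16 and 24 reads in control replicates 1, 3 and 4. The groups overlapped. A log2 fold change of -0.37 ± 0.47 (95% interval -1.37 to 0.63) came with an adjusted p of 0.876 by edgeR. It was -0.72 without CXCL10 replicate 4 and -0.17 without control replicate 1. FCGR3B (chromosome 1, 161623196 to 161631963) was at 0 throughout, so no difference could be measured.

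**Figure D3:**
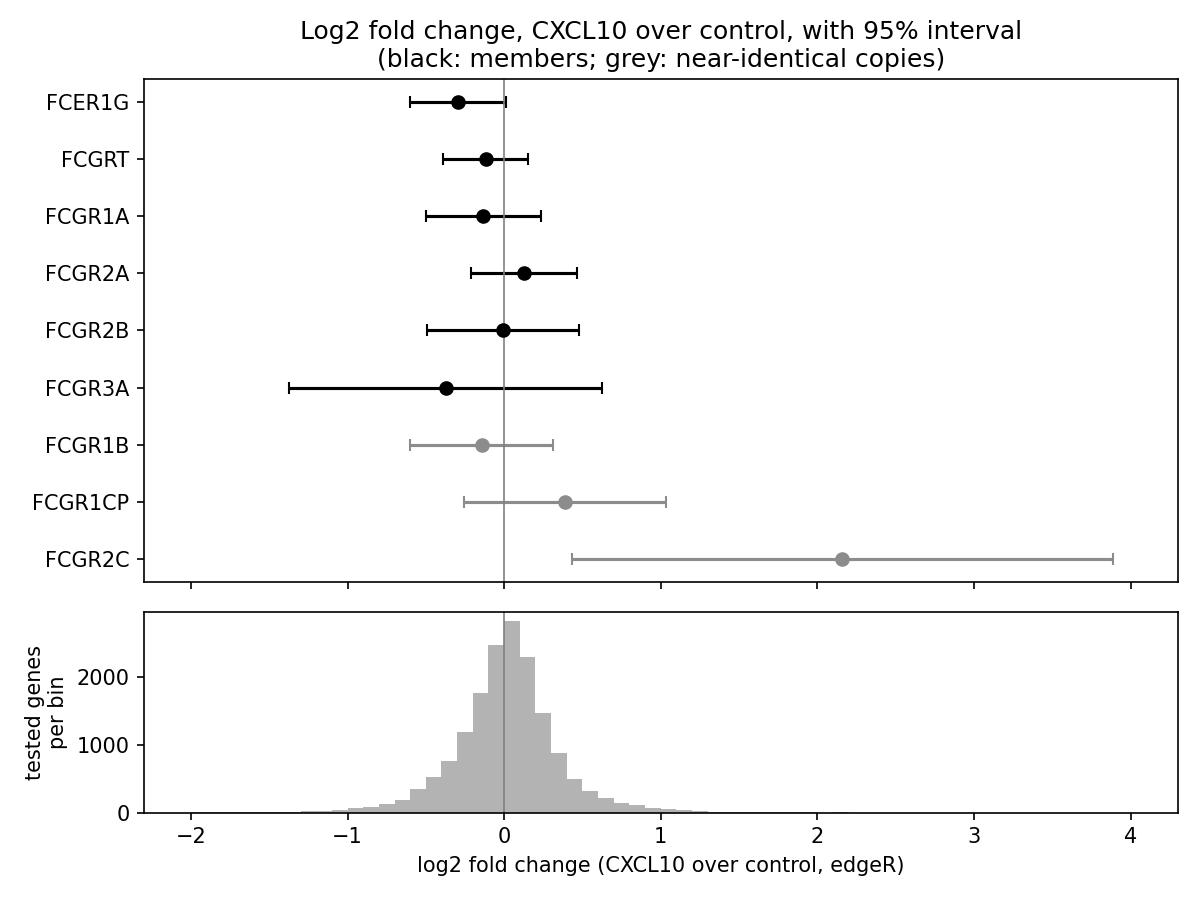
The upper panel gives the log2 fold change of CXCL10 over control for the 6 tested members (black) and 3 near-identical copies (grey), with 95% intervals from edgeR's fit, and the lower panel the distribution over all 16531 tested genes, with values beyond the axis in the end bins. Every member's interval includes 0. FCGR2C, with 0 to 18 reads per library, entered the test only through its CXCL10 libraries, so nothing is read from where its interval lies.

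FCGRT, the neonatal Fc receptor that recycles IgG and albumin (chromosome 19, 49506816 to 49526333), was the second most abundant member. It measured 601, 516 and 550 CPM in CXCL10 replicates 1, 3 and 4, against 600.2, 556 and 652 CPM in control replicates 1, 3 and 4. CXCL10 replicate 1 lay above 2 of the controls. For FCGRT the log2 fold change was -0.12 ± 0.13 (95% interval -0.39 to 0.15, adjusted p = 0.854 by edgeR). It was -0.054 without control replicate 4 and -0.059 without CXCL10 replicate 3. Its partner B2M, the beta-2 microglobulin gene, measured 4229 ± 475 CPM with CXCL10 and 4594 ± 373 CPM in controls, with a log2 fold change of -0.12 ± 0.13 as well (adjusted p = 0.862 by edgeR), and it was -0.023 without CXCL10 replicate 3.

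Ratios of reads per kilobase between genes within a library do not depend on how libraries are scaled. Their size depends on the gene length used, here merged exon length, while the log2 difference between groups does not. The balance of the inhibitory FCGR2B to the activating FCGR2A, as a log2 ratio, was -2.49, -2.89 and -2.70 in CXCL10 replicates 1, 3 and 4, against -2.71, -2.52 and -2.43 in control replicates 1, 3 and 4. The group means were -2.69 ± 0.200 with CXCL10 and -2.56 ± 0.144 in controls. The difference of -0.14 lay within the spread between libraries (exact two-sided permutation p = 0.5, adjusted 0.667, where 3 against 3 libraries cannot go below 0.1).

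For the other 3 ratios, chosen after the data were seen, p-values were adjusted over all 4. FCER1G exceeded FCGR1A by 51.3, 50.5 and 69.3 times in CXCL10 replicates 1, 3 and 4, against 64.6, 67.5 and 58.7 times in control replicates 1, 3 and 4 (exact two-sided permutation p = 0.4, adjusted 0.667). B2M exceeded FCGRT by 5.26, 4.91 and 5.48 times with CXCL10, against 5.56, 5.87 and 4.39 times in controls (exact permutation p = 1, adjusted 1). In neither ratio did the groups separate.

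The ratio of FCGR1A to FCGR2A was the 1 ratio of the 4 whose groups did not overlap. It was 4.81, 4.63 and 4.23 in CXCL10 replicates 1, 3 and 4, against 4.97, 5.25 and 6.05 in control replicates 1, 3 and 4. The log2 difference was -0.25, and it was lower in 3 of 3 CXCL10 libraries (exact two-sided permutation p = 0.1, the smallest possible here, adjusted 0.4). It was -0.17 without control replicate 4. The ratio did not pass a threshold of 0.05. It was chosen after the data were seen, and it divides FCGR1A, which was below 0, by FCGR2A, the only tested member above 0. Adjustment over the 4 ratios does not cover that choice, so nothing is read from the lack of overlap.

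**Figure D4:**
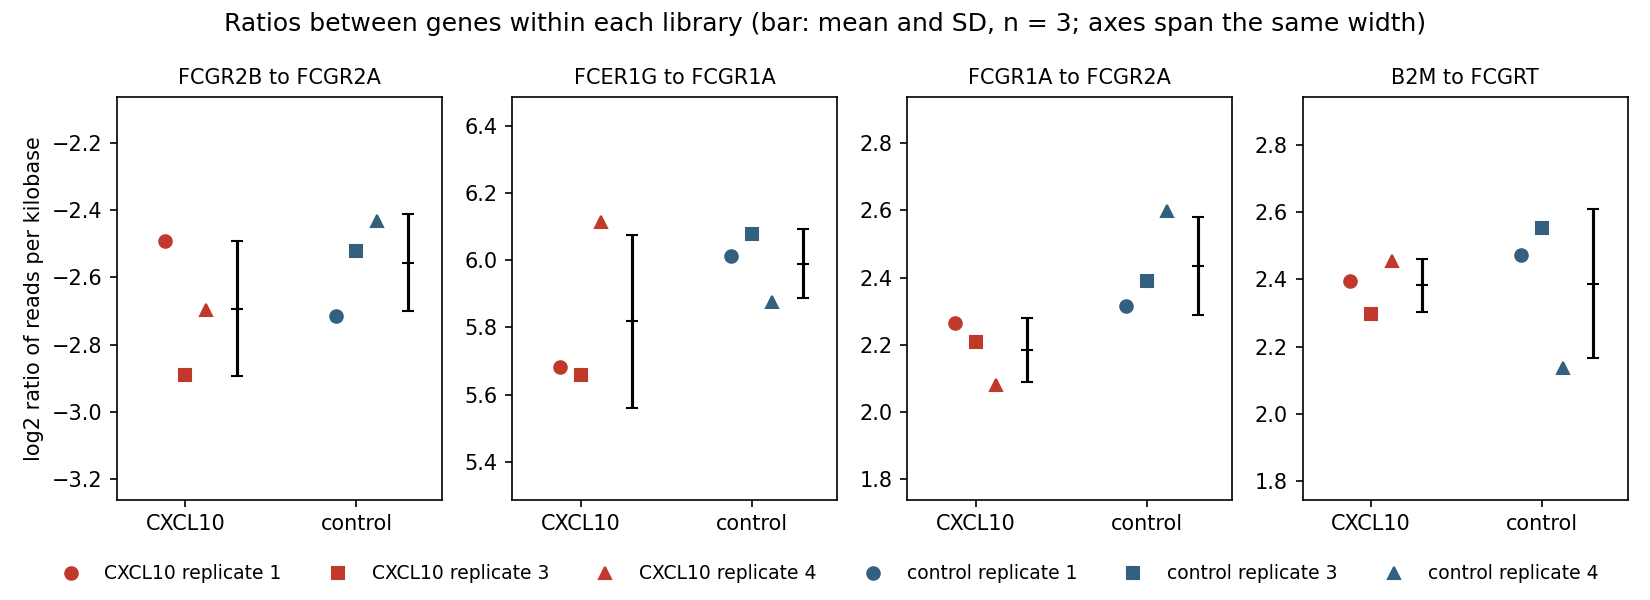
Points are log2 ratios of reads per kilobase between 2 genes in each library, with CXCL10 on the left and control on the right of each panel, and bars give mean and SD (n = 3). All panels span the same width of the log2 scale. Only for FCGR1A to FCGR2A do all 3 CXCL10 libraries (2.08 to 2.27) lie below all 3 controls (2.31 to 2.60). That ratio was chosen after the data were seen, so nothing is read from its lack of overlap.

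The members varied across the 6 libraries partly together. Pearson's r of log2 CPM was 0.84 between FCER1G and FCGRT, 0.83 between FCGR1A and FCGR2B, and 0.71 between FCGR1A and FCGR2A, but 0.19 between FCER1G and FCGR2A. Spearman's rho for these pairs was 0.60, 0.77, 0.94 and 0.086 in that order. These are descriptions over 6 points that share library preparation, depth and the high values of control replicate 4. Among 13278 other genes with at least 1 CPM, the patterns most like FCER1G were those of PORCN (r = 0.995) and INAFM1 (r = 0.995), and those most like FCGRT were PIGU (r = 0.999) and MIEN1 (r = 0.997). FCGR1A was closest to SCOC-AS1 (r = 0.986) and C15orf61 (r = 0.983), FCGR2A to AL135744.1 (r = 0.986) and EHHADH (r = 0.978), and FCGR2B to AC025181.2 (r = 0.989) and ZNF573 (r = 0.981). An r above 0.95 was reached by 22 genes for FCGR1A, 5 for FCGR2A, 27 for FCGR2B, 129 for FCER1G and 265 for FCGRT. The closest genes were picked from 13278 at only 6 points, so their r values are high in part through that choice.

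The wider Fc receptor pathway was read from lists of known components, with log2 fold changes given ± SE and CPM ± SD. In none of the 6 lists did a gene pass the test in either direction. Of the kinases and adaptors downstream of the ITAM, such as SYK, LYN and BTK, 24 of 25 were tested, with 18 above 0, 6 below 0 and a median log2 fold change of 0.15. Groups did not overlap for 6 of the 24 (25%), against 12.2% of all tested genes. These were SYK, LYN, BTK, CRKL, PIK3CD and PLCG2, each with the CXCL10 libraries above all controls. Their log2 fold changes, in that order, were 0.16, 0.12, 0.14, 0.12, 0.26 and 0.21. With the length trend removed they were 0.12, 0.065, 0.11, 0.075, 0.21 and 0.098. Next to TYROBP, the lowest p-values were those of PIK3R1, the regulatory subunit of PI3-kinase, at 31.9 ± 9.26 CPM with CXCL10 and 23.1 ± 2.95 CPM in controls (log2 fold change 0.47 ± 0.20, adjusted p = 0.683 by edgeR), and of the phospholipase gene PLCG1 (0.32 ± 0.16, adjusted p = 0.702). PIK3R1 stood at 0.23 without CXCL10 replicate 3, and PLCG1 at 0.19 without control replicate 4. The adaptor LAT2, the second most abundant of this list at 330 ± 35.1 CPM with CXCL10 and 349 ± 13.2 CPM in controls, had a log2 fold change of -0.079, and 0.011 without CXCL10 replicate 3.

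Phosphatases and other regulators of Fc receptor signalling were all tested, with 9 of 13 above 0 and a median of 0.11. INPP5D, the phosphatase SHIP-1 that acts at the ITIM of FCGR2B, measured 197 ± 11.5 CPM with CXCL10 and 166 ± 8.18 CPM in controls. Its groups did not overlap, as for 2 of the 13 genes of this list (15.4%) and 12.2% of all tested genes, and its log2 fold change was 0.25 ± 0.12 (adjusted p = 0.702 by edgeR). PTPRC (CD45), which primes Src-family kinases, had 215 ± 53.6 CPM with CXCL10 and 158 ± 11.1 CPM in controls (log2 fold change 0.45 ± 0.16, adjusted p = 0.683), which was 0.25 without CXCL10 replicate 3. The related phosphatase INPPL1 had 0.33 ± 0.17 (adjusted p = 0.702), and 0.16 without control replicate 4. The abundant CSK and PTPRJ had -0.030 ± 0.13 and 0.10 ± 0.12, and CSK was 0.043 without CXCL10 replicate 3.

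For the actin machinery that closes the phagocytic cup, 14 of 29 tested genes were above 0 and 15 below, with a median of -0.005. The lowest p-values belonged to MARCKSL1, which binds actin and membrane (247 ± 16.9 CPM with CXCL10 and 319 ± 12.1 CPM in controls, log2 fold change -0.37 ± 0.12), and to the ARP2/3 complex subunits ARPC4 (-0.45 ± 0.16) and ARPC3 (-0.31 ± 0.14). In all 3 the CXCL10 libraries lay below the controls, and none passed (adjusted p from 0.683 to 0.687 by edgeR). Over the whole list 5 of 29 genes (17.2%) had groups that did not overlap, against 12.2% of all tested genes. Without control replicate 4 the values of ARPC4 and ARPC3 were -0.25 and -0.14, and that of MARCKSL1 was -0.38. With the length trend removed MARCKSL1 stood at -0.22. CFL1 and ARPC2, the most abundant of the list, had -0.16 ± 0.13 and -0.13 ± 0.12. CFL1 stood at -0.090 without CXCL10 replicate 3, and ARPC2 at -0.075 without control replicate 4.

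Of 17 other Fc and immunoglobulin receptors, 10 were tested, with 5 above 0, 5 below 0 and a median of 0.014. The other 7 had too few reads, and 3 of these, MS4A2, FCRL3 and FCRL5, had none in any library. FCAR (CD89), the IgA receptor that signals through FCER1G, measured 4.40 ± 0.665 CPM with CXCL10 and 2.57 ± 1.88 CPM in controls (log2 fold change 0.77 ± 0.47, adjusted p = 0.747 by edgeR), and its value was 0.28 without control replicate 4. FCMR, the IgM receptor and the most abundant of the list, measured 130 ± 8.16 CPM with CXCL10 and 117 ± 6.23 CPM in controls, and FCRLA and FCGBP had log2 fold changes of -0.17 ± 0.15 and -0.16 ± 0.17. Without control replicate 4 these were -0.021 for FCRLA and -0.034 for FCGBP. Of 15 receptors known to pair with FCER1G, 6 had no read in any library and 5 were tested, with LILRA2 at 4.83 ± 1.16 CPM with CXCL10 and 4.27 ± 0.301 CPM in controls, and LILRA6 below 1 CPM in both groups. Among the genes of FcRn recycling besides B2M, the clathrin gene CLTC had a log2 fold change of 0.18 ± 0.16, which was -0.006 without CXCL10 replicate 3. The recycling GTPase RAB11A had -0.12 ± 0.12 with CXCL10 libraries below all controls, and its smallest difference with 1 library left out was -0.058. It was 1 of the 6 tested genes of this list without overlap (16.7%), near the 12.2% of all tested genes. The list median was -0.084 over 6 tested genes, 2 of them above 0.

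**Figure D5:**
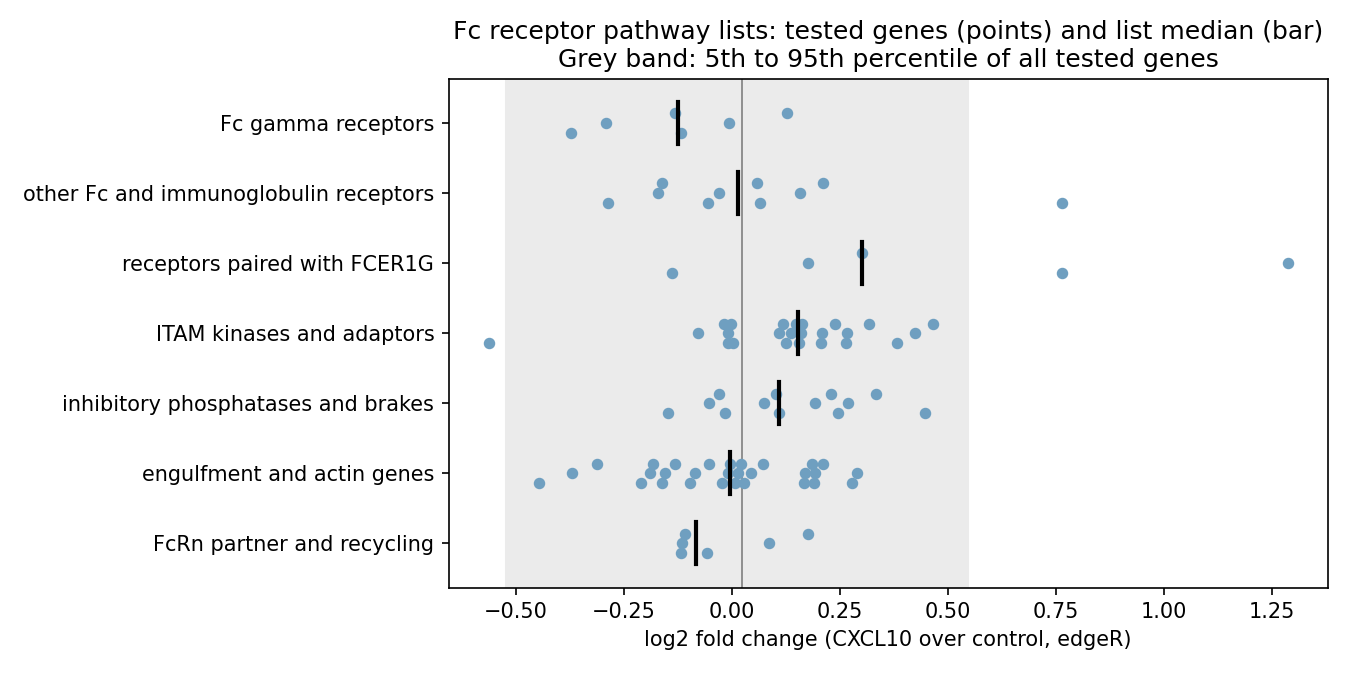
Points are the log2 fold changes of tested genes in the receptor set and in 6 lists of related genes, black bars are list medians, the vertical line is the median of all tested genes, and the grey band runs from their 5th to 95th percentile (-0.52 to 0.55). List medians lie between -0.12 for the receptors and 0.30 for receptors paired with FCER1G, and no point passed the test.

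Most markers of the labelled cell type were present. All 10 macrophage markers had reads, led by CSF1R, MSR1 and ITGAX, but some were low. LYZ had 205 to 657 reads per library, MRC1 34 to 90, MARCO 15 to 58 and CD68 only 0 to 5. Reads mapped to several places or shared by overlapping genes were left out, but this was examined only for the members and their copies. How many reads of the markers were lost in this way is not known, so low counts need not mean low expression. The summed level of the 10 markers was 2871 to 2967 CPM with CXCL10 and 2753 to 2841 CPM in controls, ranges that did not overlap. Of the 9 tested markers, 8 had a log2 fold change above 0, and 1, CD14, was below (-0.25). Groups did not overlap for 3 of the 9 (33.3%), CD163, ITGAM and LYZ, against 12.2% of all tested genes. CSF1R, the most abundant marker, had overlapping groups and a log2 fold change of 0.045. Other cells that carry these receptors were checked by their markers. Natural killer markers summed to 141 to 169 CPM with CXCL10 and 168 to 216 CPM in controls, nearly all of it from GNLY. Neutrophil markers summed to 58.9 to 100.7 CPM with CXCL10 and 68.5 to 93.3 CPM in controls, with CXCR1 and CEACAM8 at 0 in all libraries. B cell markers summed to 3.11 to 3.40 CPM with CXCL10 and 3.20 to 4.13 CPM in controls, with MS4A1 at 0. T cell markers summed to 346 to 410 CPM with CXCL10 and 296 to 373 CPM in controls, from TRAC and from CD4, which monocytes and macrophages also carry, while CD3D, CD3E, CD3G and CD8A had 0 to 10 reads per library, around the limit of 6 reads, and were not tested. Mast cell and basophil markers summed to 14.9 to 15.6 CPM with CXCL10 and 15.1 to 21.7 CPM in controls, with CPA3 at 0. Their part in the receptor levels was not tested.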

How the data were processed

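Polyadenylated RNA of PMA-treated THP-1 cells was sequenced in 3 CXCL10 and 3 control libraries, with Illumina's ligation-based stranded kit per the labels. The deposited values are raw read counts per gene name. Per the file headers, featureCounts 2.0.6 assigned reads to GENCODE 30 exons. Trim Galore, STAR, Subread and hg38 are named in the submitters' processing notes. Per the file headers, both mates of a fragment were counted, strand was ignored, and reads mapped to several places or over 2 genes were left out. Each library held 34.8 to 41.0 M reads assigned to genes, and no pair of libraries was identical or agreed within sampling noise.

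Counts were tested here with edgeR 4.0.16 in R 4.3.3 (filterByExpr, TMM factors, quasi-likelihood fit with group as the only term, Benjamini-Hochberg adjustment over 16531 genes, threshold 0.05). Standard errors were derived from the fold change and its F statistic. CPM and RPKM used TMM-scaled totals, and limits for 0 reads used unscaled totals and cover counting error only. The fit was tested on simulated data, with 50 genes changed at each size. It recovered 13 of 50 genes changed 1.5-fold, 35 at 2-fold, 47 at 3-fold and 48 at 4-fold, and it called 12 unchanged genes. Most changes of 1.5-fold were thus missed in the simulation. Single ratios were compared by an exact permutation test. Alternatives were other scaling factors and filters, DESeq2 1.42.0, limma-voom (limma 3.58.1), halved counts, removal of the gene length trend, a replicate block, and each library left out. Summed copies, the coding length and 3 of the 4 ratios were added after the data were seen.

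The members and lists were chosen with earlier results of these data known. Named genes are the 7 members, their copies, the 2 genes most alike each member with at least 1 CPM, and from each list the 3 with the lowest p (as none passed) and the 2 of highest level. Transcript sequences were read from GENCODE 29, which is on the same assembly. Of the listed symbols, FCGR1BP and FCGR1C are not used here.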

Additional observations from a re-analysis of the deposited data

How the results depend on the processing

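None of the alternatives called a member. With no filter on low counts, 137 of 30869 genes were called (45 higher and 92 lower), against 0 of 16531 with the filter. Among them were 1 pathway gene, TYROBP, and the macrophage marker LYZ (log2 fold change 0.85, adjusted p = 0.00965 by edgeR). The cause was not tested. FCGR2A, FCGR3A, FCER1G and FCGRT kept their direction in every alternative in which they were tested. With 1 library left out, FCGR1A was lowest without control replicate 3, at -0.254, and turned to 0.083 when control replicate 4 was left out, and its copy FCGR1B ran from -0.271 to 0.102 with the same libraries left out. FCGR2B, at -0.006, turned to 0.077 with library size only, 0.005 with limma-voom, 0.002 with the replicate block, and 0.090, 0.038 and 0.183 without CXCL10 replicate 3, CXCL10 replicate 4 and control replicate 4. Library size scaling shifted the median of all genes to 0.10. With each library left out in turn, FCER1G ran from -0.38 to -0.15, FCGRT from -0.18 to -0.054, FCGR2A from 0.026 to 0.24, FCGR2B from -0.147 to 0.183 and the FCGR2B to FCGR2A log2 ratio from -0.24 to -0.038.

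The replicate numbers are shared by the groups, but same-numbered libraries did not deviate together (r = 0.026, 0.019 and -0.051 for numbers 1, 3 and 4). With the replicate block 0 genes were called, and the FCGR2B to FCGR2A difference stayed at -0.14 (exact sign-flip permutation p = 0.5). FCGR3A and FCGR2C rest on at most 32 and 18 reads per library, and with halved counts FCGR3A was -0.38 (SE 0.443, against 0.466 with all reads).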
